A study of Drosophila melanogaster with 2 samples.

Results

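The 9 genes described here encode Drosophila melanogaster insulator proteins: BEAF-32, CTCF, su(Hw), Cp190, mod(mdg4), pita, ZIPIC, Ibf1 and Ibf2. They were taken as a list by name, and all 9 were matched among the 13945 protein-coding genes of the 6 main chromosome arms. The data are chromatin immunoprecipitation sequencing (ChIP-seq) peaks from whole embryos collected at 0 to 18 hours. The embryos carried an amos-eGFP fusion, amos being a proneural basic helix-loop-helix transcription factor, and chromatin was pulled down with an antibody to GFP, although the antibody field of the labels reads amos. The only group holds 2 biological replicates of this strain, and no untagged or control library was analysed here. Each peak therefore is a place where the authors' caller found signal in this pull-down, and there is no second condition to compare it with.

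Insulator proteins divide chromosomes into domains and can keep an enhancer from acting across them. BEAF-32, CTCF, Su(Hw), Pita and ZIPIC bind DNA directly, and the Ibf1 and Ibf2 proteins form a complex that binds DNA as well. Cp190 and Mod(mdg4) are BTB-domain cofactors that the DNA-binding proteins bring to chromatin. BEAF-32 is known for sites with the core CGATA near the promoters of broadly expressed genes, where the transcription factor DREF also binds.

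The sequences below lie at or near the summits of peaks at these genes and are shown because they hold the BEAF-32 word CGATAG. It was in 8 of 11 summit windows at their own start sites, against 25.7% of all summit windows and 9.75% of all start-site windows. Neither share is limited to start sites with a peak, and no such share is given. At the start sites of other genes nearby, the word was in 6 of 16 summit windows. The strongest peak of BEAF-32 itself is among the own-start-site windows without the word. Each sequence is 30 bases of the Release 6 (dm6) reference, read 5′ to 3′ on the strand of the insulator gene. It is centred on the CGATAG match nearest to the summit. Capitals mark CGATAG on either strand and TATCGATA, the DREF word, which overlap where both are in a printed sequence. The Ibf2 summit window also holds TATCGATA, outside the bases printed here and apart from the CGATAG. The first 6 belong to peaks at the start sites of the named genes, and the last 2 to strong peaks at the neighbours Sec63 (beside CTCF) and Sry-beta (beside ZIPIC).
Cp190, chr3R:15275229-15275258, minus strand: gttatcgcatggCTATCGATAGctgccgag
CTCF, chr3L:7356718-7356747, minus strand: aaaccaatcgaaCTATCGATAGctggcggt
mod(mdg4), chr3R:21377439-21377468, minus strand: aaatattttaagCTATCGATAtattgtcac
Ibf2, chr3R:9258512-9258541, minus strand: gcaagcgaccatCGATAGaattcgatggca
Ibf1, chr3R:9258933-9258962, plus strand: gtcgatacatgtCTATCGtatgcaagcgtg
ZIPIC, chr3R:30036860-30036889, minus strand: atcgtcgataacCGATAGctgtgcaatcgg
Sec63, chr3L:7360511-7360540, minus strand: tcgattgcacggCTATCGATAGgcgggagg
Sry-beta, chr3R:30039704-30039733, minus strand: tgcCGATAGtgcCGATAGtatcgactgcgt
In Cp190, CTCF and the neighbour Sec63 the same palindrome, CTATCGATAG, holds CGATAG on both strands around 1 TATCGATA.

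Of the 9 genes, 8 had a peak summit in the gene body or within 5 kb in the pooled list, and su(Hw) had none. Over all protein-coding genes the share was 64.7%. The same 8 genes had a summit within 500 bp of one of their own transcription start sites (TSSs), against 37.3% of all protein-coding genes. A gene with a peak among the strongest 10% of the list at its own TSS was rarer, at 5.74% of all genes. Among the 9 these were BEAF-32 and mod(mdg4). The pooled list held 5823 peaks on the main arms, with signals from 2.06 to 4454.5 and a median of 120.1. Signal is the value the authors' caller gave a peak, on a scale set within each set of reads. A signal is therefore read against its own list, by its rank, and a ratio of signals between replicates only by its place among the same ratios over all shared regions.

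The counts were close in the other lists, except for strong peaks. In the conservative list (3115 peaks), 8 genes had a summit within 5 kb (48% of all genes) and 7 had one at their own TSS (23.8% of all genes). In the replicate 1 list (6213 peaks), 8 genes had a summit within 5 kb (66% of all genes) and 8 at their own TSS (39.6%). In the replicate 2 list (2880 peaks), the counts were 8 (45.2% of all genes) and 7 (20.6%). ZIPIC was the gene without an own-TSS peak in the conservative and replicate 2 lists, and su(Hw) had no peak in any list. Over the replicates, the number with an own-TSS peak was 7.5 ± 0.707 (SD, n = 2). The number in the strongest 10% split by replicate, at 4 in replicate 1 (6.08% of all genes) and 0 in replicate 2 (2.41%). It was 1 in the conservative list (3.08%). The 4 were BEAF-32, mod(mdg4), Ibf1 and Ibf2. Ibf1 and Ibf2 counted the same peak, 2 bp from the Ibf2 TSS and at 9.96% from the top. In replicate 1 the peak nearest to the Ibf1 TSS was at 47.8%. The number of reads behind the lists is unknown, so no interval is given.

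**Figure D1:**
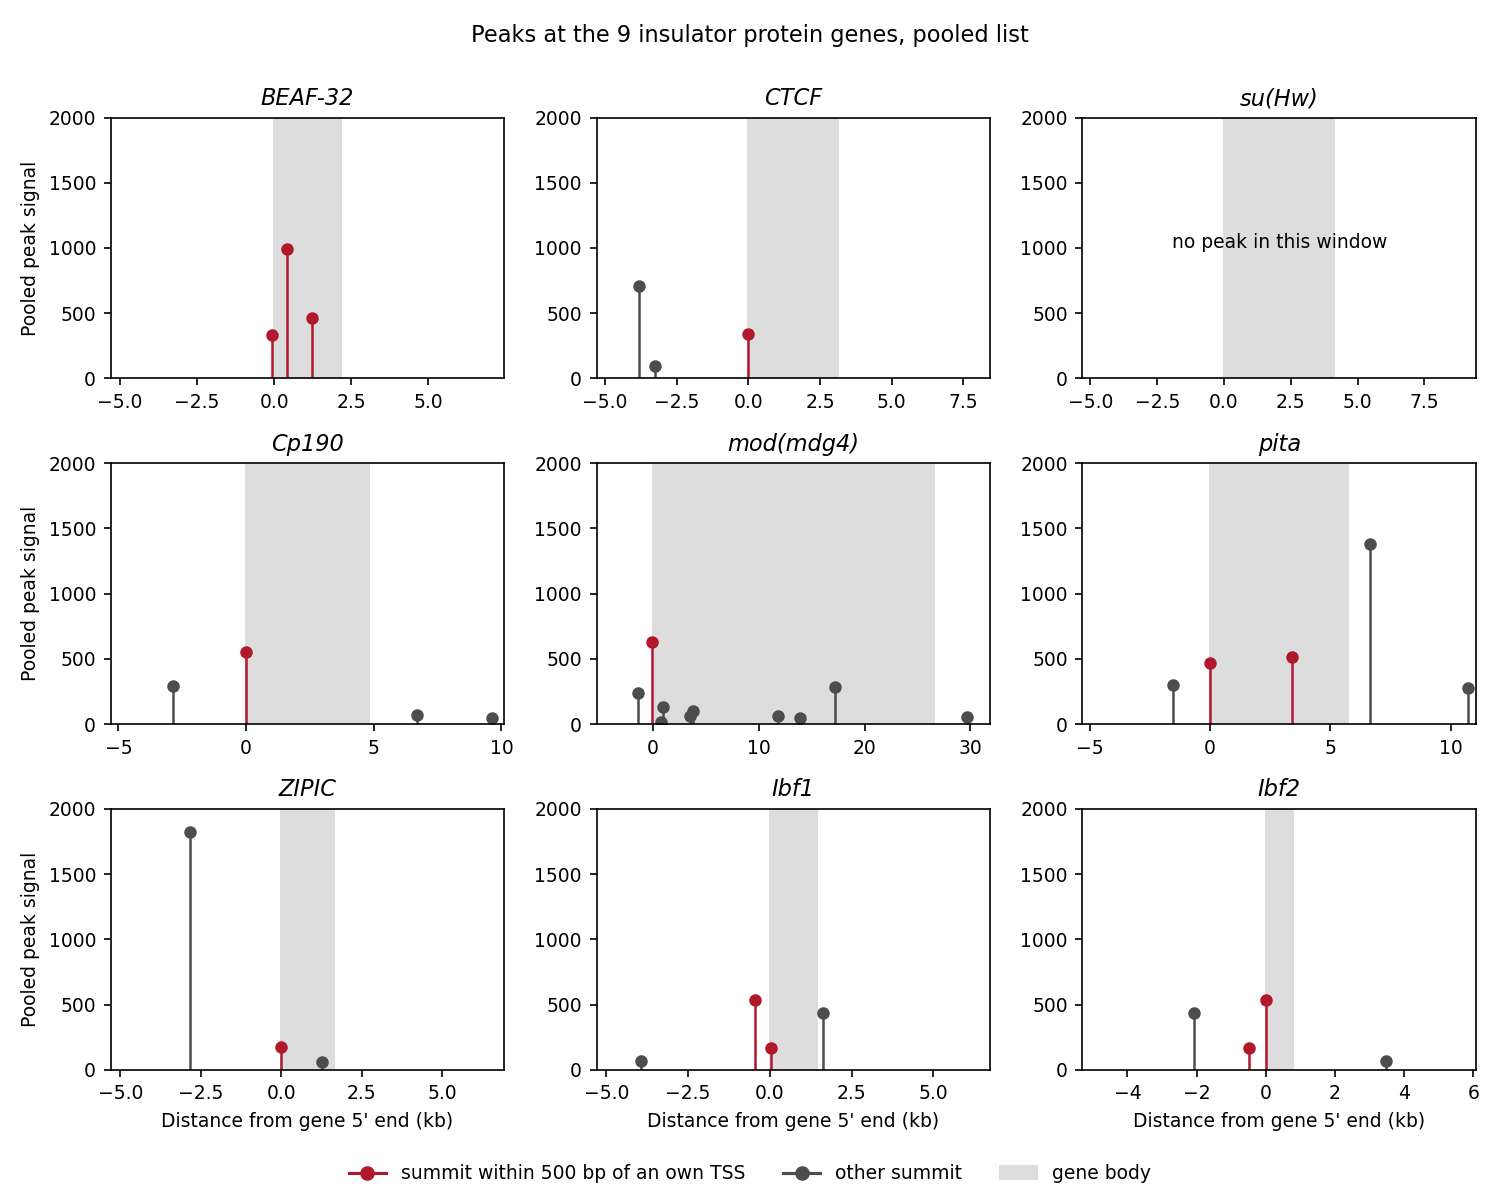
Position of each summit along the gene (x axis, kb from the 5' end of the gene, in the direction of transcription) and pooled peak signal (y axis, caller's units), for each gene with 5 kb to either side. Red marks summits within 500 bp of an own TSS. BEAF-32 has 3 such peaks and no other, su(Hw) has none, and beside ZIPIC, pita and CTCF the tallest peak belongs to a neighbour.

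The 11 peaks at the genes' own TSSs had signals from 169.1 to 993, with a median of 470.5, and all 11 had a q value of 0.05 or less (76.4% of the whole list did). All 11 overlapped a peak of the replicate 1 list and 10 a peak of the replicate 2 list, as did 82.0% and 46.8% of the pooled list. Another 16 peaks lay at the TSS of another gene, with a median signal of 258.4 and a range of 47.0 to 1819.7. A further 3 peaks were nearest to a member's TSS but more than 500 bp away (12.4 to 131.8), and 2 had no TSS within 500 bp (45.0 and 52.9). That makes 32 distinct peaks, of which 18 overlapped a peak in both replicate lists, as did 39.7% of the pooled list. The 18 stand for 17 shared regions, since 2 of them, inside mod(mdg4), overlapped the same peak in each replicate.

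BEAF-32 had the strongest own-TSS peak of the 9 genes in the pooled list, and its promoter was among the strongest 10% there. The gene (FBgn0015602, chr2R:14770469-14772630, plus strand) is 2162 bp long, with TSSs at its 5' end and 447 and 832 bp further on. It held 3 peaks, all within 500 bp of these TSSs. The strongest (chr2R:14770724-14771062, summit in an intron, 19 bp from the second TSS) had a pooled signal of 992.6 and rank 235 of 5823, or 4.04% from the top. The peak past the third TSS (summit 397 bp away, in an intron) had 462.0 and rank 895. The peak at the first TSS (summit 53 bp upstream) had 330.9 and rank 1293. A run of 3 or more peaks at own TSSs was found for 55 genes in all, 0.394% of protein-coding genes, whatever their number of TSSs.

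The place of BEAF-32 differed between the replicates. In replicate 1 its strongest peak had a signal of 935.7, at rank 114 of 6213 (1.83%). In replicate 2 the overlapping peak had 119.0, and the strongest of the 3 was the one at the first TSS, with 123.6 at rank 1231 of 2880 (42.7%). All 3 peaks were in both replicate lists. In the conservative list the strongest peak ranked 230 of 3115 (7.38%).

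**Figure D2:**
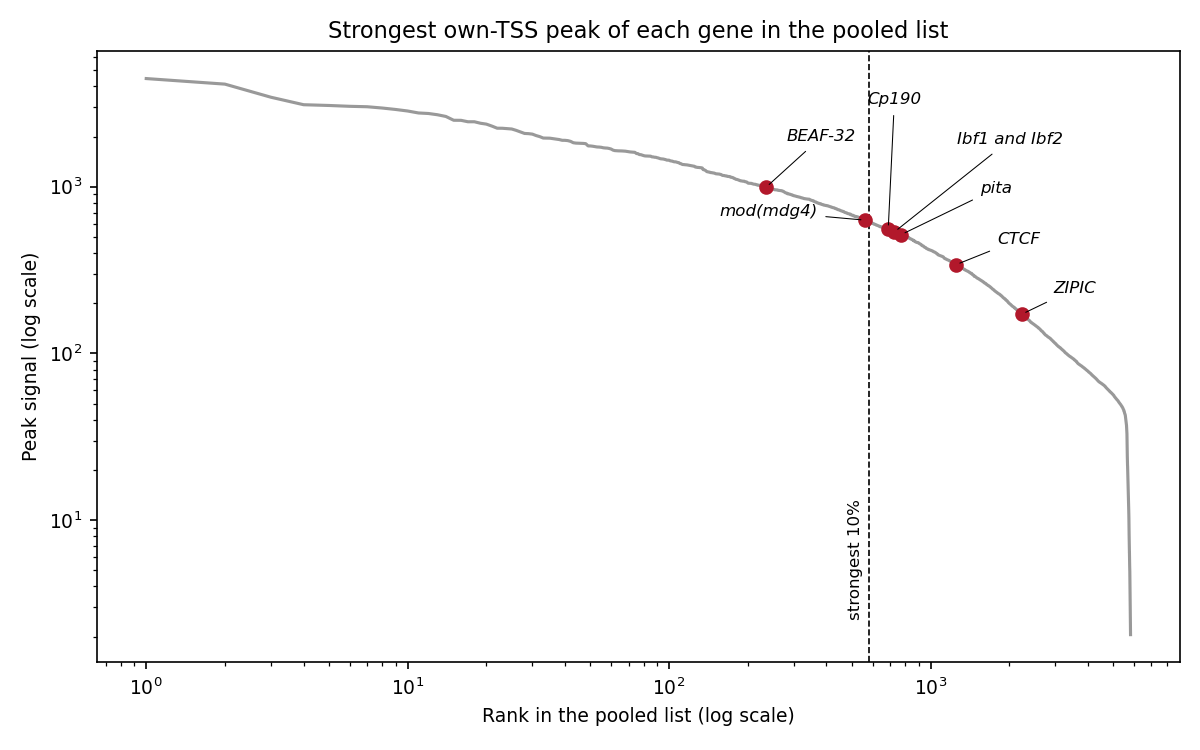
Peak signal against rank for all 5823 peaks of the pooled list (grey line, both axes log), with the strongest own-TSS peak of each gene in red and the strongest 10% to the left of the dashed line. BEAF-32 and mod(mdg4) lie left of the line; Cp190, the peak shared by Ibf1 and Ibf2, and pita follow closely to its right.

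Genes with nearly the same pooled signal at their own TSS were read beside it. The 3 genes next above BEAF-32 were Neb-cGP (993.1), CG7457 (994.2) and Ptpmeg (996.8), and those next below were mri and rno, which share a peak (990.2), and RecQ5 (989.3), which encodes a DNA helicase. In replicate 1 these ranged from 571.0 (Ptpmeg) to 769.3 (RecQ5), below the 935.7 of BEAF-32. In replicate 2 they ranged from 249.8 (mri and rno) to 399.7 (Ptpmeg). All were above the 119.0 of the same BEAF-32 peak and the 123.6 of the peak at its first TSS. The match was on the pooled signal, which draws on both replicates, so these comparisons are not separate observations. Ptpmeg, like BEAF-32, had 3 own-TSS peaks in the pooled list and in each replicate list, and the others had 1 or 2. Likeness here is closeness of 1 value, the pooled signal, over 1 list.

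The replicates were then compared over the same regions. Each replicate 2 peak was paired with the strongest replicate 1 peak that overlapped it. Where a replicate 1 peak then had several partners, only the strongest was kept. This gave 2241 regions, in which the signal of replicate 1 was a median of 1.84 times that of replicate 2 (5th to 95th percentile, 0.353 to 4.01). For the main BEAF-32 peak the ratio was 7.86, the tenth highest of the 2241. Its rank went from 110 in replicate 1 to 1174 in replicate 2, and 28 regions (1.25%) fell as far or further. The BEAF-32 peak past the third TSS had a ratio of 4.14 (ranks 645 and 1456), and the peak at the first TSS had 2.01 (ranks 987 and 1133). No test was made, since this peak was noticed for its difference and each replicate is 1 sample.

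**Figure D3:**
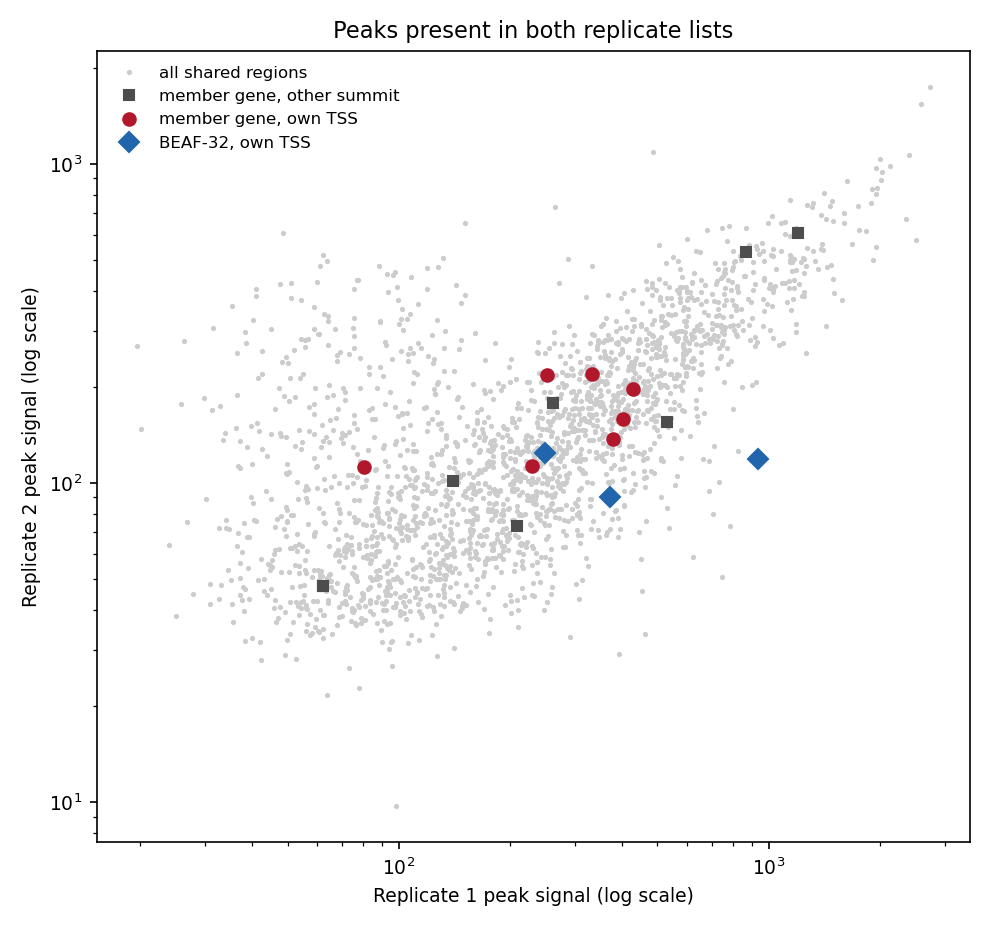
Signal in replicate 2 (y axis) against replicate 1 (x axis) for the 2241 regions in both lists, both axes log, with peaks at the insulator protein genes marked; each axis has its own scale. The rightmost blue diamond, the main BEAF-32 peak at 935.7 and 119.0, lies at the lower edge of the cloud.

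At the other genes the ratios of replicate 1 to replicate 2 in shared regions ran from 0.720 to 3.41. The lowest was that of the Ibf1 peak, at 1971 of 2241 from the highest ratio, with rank 1860 in replicate 1 and 1233 in replicate 2. The highest was that of the Sec63 peak beside CTCF, at 204 of 2241, with ranks 365 and 908.

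Among the other DNA-binding proteins, CTCF (FBgn0035769, chr3L:7353578-7356713, minus strand) encodes the zinc-finger protein that is conserved from flies to mammals. Its 1 TSS had a peak (chr3L:7356631-7356846, summit 28 bp upstream, intergenic) with a pooled signal of 340.7 and rank 1252 (21.5%). Its signal was 228.7 in replicate 1 and 112.7 in replicate 2. The strongest peak within 5 kb was not this one but that at Sec63, a gene for a factor of protein import into the endoplasmic reticulum, with 706.0 at rank 466 and its summit 3820 bp upstream of CTCF. A weaker peak (93.2) lay in a coding exon of pst and was found in replicate 1 alone.

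The pita gene (FBgn0034878, chr2R:23548967-23554712, minus strand) encodes a zinc-finger protein that recruits Cp190. It had a peak 13 bp inside its first TSS (signal 470.5, rank 869), with 251.7 in replicate 1 and 217.8 in replicate 2. A second peak (516.2, rank 773) counted as its own because the summit lay 262 bp from an internal pita TSS, but it was nearer to Dcp-1, an effector caspase gene, at 24 bp. The strongest peak of the neighbourhood was at wmd (1377.8, rank 110), 3496 bp from the nearest pita TSS. Peaks at Rrp4 (303.5), which encodes an exosome subunit, and AIMP3 (280.0) completed the 5. Both were absent from the replicate 2 list but present in the conservative list, at ranks 1296 and 1386 of 3115.

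ZIPIC (FBgn0039740, chr3R:30035240-30036870, minus strand), another zinc-finger partner of Cp190, showed the widest gap between own and neighbouring peaks. At its TSS the pooled signal was 172.1, at rank 2238 (38.4%), with the summit 8 bp away in the 5' UTR. The replicate 1 list had this peak at 166.9. The replicate 2 list did not have it, and the strongest region there in the ranked list of that replicate, which reaches far below the threshold, had 7.78 at an irreproducible discovery rate (IDR) of 0.710. The peak 2832 bp upstream, 17 bp from the TSS of Sry-beta, a zinc-finger gene of the serendipity cluster, had 1819.7 at rank 46. It was at rank 58 in replicate 1 (1199.4) and 42 in replicate 2 (608.7). This neighbouring peak was thus near the top of both replicate lists, and the ZIPIC peak was in 1 of them. Another, in the ZIPIC coding exon, had 57.1, and neither replicate list had it.

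The gene su(Hw) (FBgn0003567, chr3R:14304455-14308589, minus strand) encodes the zinc-finger protein of the gypsy retrotransposon insulator, and it was the 1 member with no peak. The TSSs of CG31321, IFT54 and Polr2I, which lie within 5 kb of it, had none either. The nearest summits in the pooled list were 15.3 kb beyond its 3' end, at red (signal 51.5), and 18456 bp beyond its 5' end, at ATPsynE (310.5). Of all protein-coding genes, 18.4% were as far from a summit. Below the threshold, the ranked list of replicate 1 had 15 regions within 5 kb, the strongest at 24.7 with an IDR of 0.718 and the lowest IDR at 0.181, and that of replicate 2 had 0. Peaks of the replicate lists have an IDR of 0.01 or less.

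Of the cofactor genes, Cp190 (FBgn0000283, chr3R:15270432-15275241, minus strand) encodes the BTB protein shared by most fly insulator complexes. Its peak (chr3R:15275119-15275366) had its summit on the annotated TSS itself, at a distance of 0 bp. The signal was 556.0 at rank 689 (11.8%), outside the strongest 10%, whose floor was 616.1. It was 331.7 in replicate 1 and 219.6 in replicate 2. The neighbour MRG15, a chromodomain gene, had a peak of 289.3 with a replicate 1 signal of 200.5 and no overlapping region in the ranked list of replicate 2. The MRG15 peak was nevertheless in the conservative list, at rank 1342 of 3115. Weaker peaks at CG14864 (66.7) and ATPsynO (47.0) were in the replicate 1 list and not in that of replicate 2.

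The gene mod(mdg4) (FBgn0002781, chr3R:21350846-21377401, minus strand) spans 26556 bp, and with 5 kb to either side it took in 10 of the 32 peaks. At its TSS the signal was 629.9, at rank 562 (9.65%), just inside the strongest 10%. The peak (chr3R:21377334-21377619, summit 68 bp upstream) had 429.5 in replicate 1 and 196.4 in replicate 2. A peak 1391 bp upstream (236.7) was nearest to tin, the heart and mesoderm homeobox gene, at 185 bp, and it was in both replicate lists at 139.8 and 101.5. Inside the gene, peaks of 131.8 and 12.4 lay 951 and 751 bp from the TSS, both over the same replicate 1 peak, and neither had a region in the ranked list of replicate 2. Beyond the 3' end of the gene, a peak of 52.9 lay in an intron of aus, 1911 bp from the aus TSS. Neither replicate list had it.

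Further into mod(mdg4), peaks lay at a second set of TSSs, except one of 45.0 in a pre-mod(mdg4) 3' UTR. It was 1754 bp from the nearest TSS, that of pre-mod(mdg4)-C. Many mod(mdg4) mRNAs are made by trans-splicing, in which the common first part is joined to a last part transcribed separately, and the annotation lists these last parts as 23 pre-mod(mdg4) genes on both strands. They were looked up after the peaks had been seen. All 23 had a summit within 500 bp of a TSS in the pooled list, but they share TSSs, and 4 peaks served all 23. The strongest (282.5, rank 1512) lay 29 bp from the TSS of pre-mod(mdg4)-Z and pre-mod(mdg4)-T and was in both replicate lists, at 208.5 and 73.5. Peaks of 104.0 and 63.7 lay 43 and 276 bp from the shared TSS of pre-mod(mdg4)-AA, pre-mod(mdg4)-N and pre-mod(mdg4)-O. The peak at pre-mod(mdg4)-V and the genes that start beside it (63.5) was in the replicate 2 list (48.6) and not in that of replicate 1. Accordingly 13 of the 23 genes had such a peak in replicate 1 (39.6% of all genes) and 23 in replicate 2 (20.6%).

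Ibf1 (FBgn0037670) and Ibf2 (FBgn0037669) encode BED-finger proteins that bind Cp190, and they are transcribed away from each other from TSSs 463 bp apart. Each TSS had a peak of its own. The Ibf2 peak (chr3R:9258355-9258638, 6 bp from the TSS) had 535.8 at rank 728, with 404.2 in replicate 1 and 159.1 in replicate 2. The Ibf1 peak (chr3R:9258823-9259048, 25 bp from the TSS) had 169.1 at rank 2267. Because of the short distance each gene also counts the peak of the other as within 500 bp, so the higher value stands for both in the counts. With each peak given to the nearest TSS only, the pooled-list counts of 8 genes with an own-TSS peak and 2 in the strongest 10% were the same. The replicates ordered this pair alike, with the Ibf2 peak higher in both, although the gap was 404.2 against 80.6 in replicate 1 and 159.1 against 112.0 in replicate 2. Within 5 kb, ATP6AP2, which encodes an accessory protein of the vacuolar proton pump, had 437.2, and CG16734 had 65.1.

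**Figure D4:**
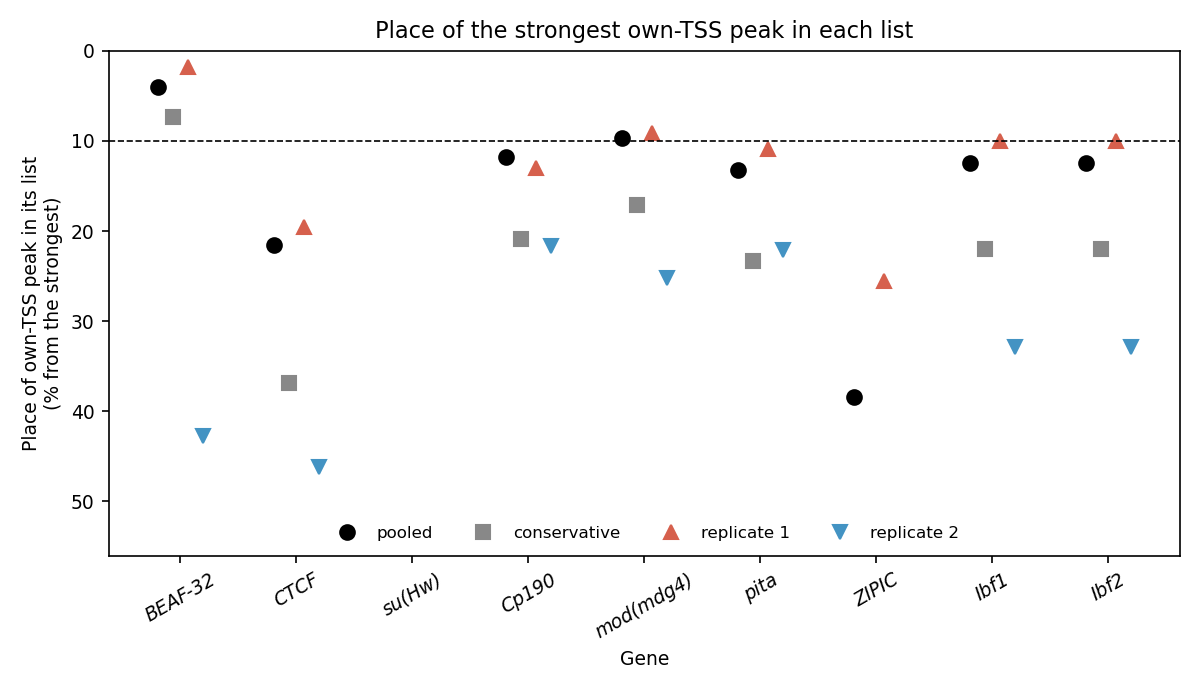
Place of the strongest own-TSS peak of each gene in each of the 4 lists (y axis, percent from the strongest peak, with the strongest at the top); the dashed line is 10%. BEAF-32 is at 4.04, 7.38 and 1.83% in the pooled, conservative and replicate 1 lists and at 42.7% in replicate 2, su(Hw) has no point, and ZIPIC has none in the conservative and replicate 2 lists. Lists differ in length, so places in them are not on a common scale.

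By own-TSS signal in the pooled list the order was BEAF-32 (992.6), mod(mdg4) (629.9), Cp190 (556.0), Ibf2 (535.8, also counted for Ibf1), pita (516.2 at the TSS near Dcp-1, 470.5 at its first TSS), CTCF (340.7) and ZIPIC (172.1). The pooled list gives 1 value per peak, so neighbours in this order cannot be separated by a spread. The replicates ordered them differently. In replicate 1 the order was BEAF-32, mod(mdg4), Ibf2, pita (380.1, by its peak near Dcp-1), Cp190, CTCF and ZIPIC. The peak at the first pita TSS had 251.7 there, below the 331.7 of Cp190. In replicate 2 it was Cp190 (219.6), pita (217.8), mod(mdg4) (196.4), Ibf2 (159.1), BEAF-32 (123.6) and CTCF (112.7). There pita and BEAF-32 each stood by the peak at the first TSS, so for them the replicate orders compare different peaks. Over all 5208 protein-coding genes with an own-TSS peak the median of the strongest such peak was 178.1. Of the 8 members with such a peak, 7 exceeded it. Ibf1 is among the 7 only through the peak nearest to Ibf2, since the peak nearest to its own TSS had 169.1.

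The summits were then read for motifs in windows reaching 50 bp to each side, on both strands, without regard to overlap between motifs. CGATAG was in 14 of the 32 windows (43.8%), against 25.7% of all summit windows of the pooled list and 9.75% of windows of the same length on all protein-coding TSSs. It was in 8 of the 11 own-TSS windows and in 6 of the 16 windows at the TSS of another gene. The share over own-TSS peaks of all genes is not given, so the 8 of 11 has no like share beside it. TATCGATA was in 6 of the 32 (18.8%), against 13.7% of all summit windows and 4.48% of TSS windows, and 4 of the 6 were at own TSSs: Cp190, CTCF, mod(mdg4) and Ibf2. The motifs overlap in the palindrome shown above, so these counts are not separate.

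The own-TSS windows without CGATAG were the main BEAF-32 peak, the peak at its first TSS, and the peak at the first pita TSS. Of the BEAF-32 peaks only that past the third TSS had CGATAG in its window, with 2 matches. Over the whole width of the main BEAF-32 peak (339 bp) there was no CGATAG, no TATCGATA and no E-box, and 1 match to the shorter CGATA. E-boxes (CANNTG), the class of word that proneural proteins bind, were in 12 of the 32 windows (37.5%), against 40.4% of all summit windows and 43.7% of TSS windows, and in 3 of the 11 at own TSSs. The E-box CAGCTG was in 2 of the 32 (6.25%), against 8.64% and 8.77%.

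Of the other insulator proteins, words of ZIPIC, Su(Hw) and CTCF were searched for, and none of Pita or Ibf. The ZIPIC word CAGGGCTG was in 2 windows (6.25%, against 2.15% of all summit windows and 1.05% of TSS windows), both inside mod(mdg4), at the pre-mod(mdg4)-N and pre-mod(mdg4)-V peaks. The Su(Hw) core TGCATA was in 1 (3.12%, against 4.55% and 3.42%), at Ibf1. AGGTGGCG or AGGGGGCG, a CTCF word, was in 0 of the 32, against 1.43% and 0.296%. GGTCACACT, the word of the promoter factor M1BP, was in 1, at the ZIPIC TSS (3.12%, against 3.59% and 3.64%). GAGAGAG, that of GAGA factor, was in 1, inside mod(mdg4) (3.12%, against 1.99% and 1.54%).

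A wider list of 18 genes for architectural proteins and partners of these insulators was read in the same way. In the pooled list 16 had a summit within 5 kb, 12 had one at their own TSS and 4 had one there in the strongest 10%, beside the shares of 64.7%, 37.3% and 5.74% over all genes given above. The 4 were fs(1)h (1215.1), a BET-family bromodomain gene whose peak is nearest to mys, Cap-H2 (958.5), a condensin subunit gene whose peak is nearest to MED7, JIL-1 (688.6), a histone kinase gene, and Top2 (664.5), the topoisomerase II gene. The 2 genes without any peak were Elba1 and Elba3, which encode subunits of an early embryonic boundary factor. Elba2, which encodes another subunit, shared with insv a single peak of 54.3 that was nearest to Rad1. In the conservative list the counts were 12, 10 and 2 (48%, 23.8% and 3.08% of all genes). In replicate 1 they were 16, 13 and 4 (66%, 39.6% and 6.08%), and in replicate 2 they were 11, 7 and 2 (45.2%, 20.6% and 2.41%).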

How the data were processed

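Per the text files deposited with the samples, peak lists on dm6 (Release 6) were derived from each replicate and from both together, and thresholded by irreproducible discovery rate (IDR). Per the labels' protocols, chromatin was sonicated to 200 to 800 bp. Which aligner and caller were used is not stated by the labels or headers read for this work. The deposited signal is the value the authors' caller gave each peak, the deposited q value is a −log10 value, and the authors' global IDR is a score on the same −log10 scale. No read counts are given, so depth is unknown. Of the ranked lists, 32 columns of per-input values were not used.

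Summits on the 6 main arms were set against Ensembl release 115 genes, with every annotated transcript start as a TSS, 1-based. Ranks, places and the strongest 10% were taken within each list. Peaks overlapped at 1 bp or more. Motif windows reached 50 bp to each side of the summit in the RefSeq copy of Release 6. Counting functions were tested on simulated data (Python 3.11.15, pandas 2.3.3). With 1 group, no test between conditions was possible.

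The text names all 9 genes, the nearest gene of each other peak, the genes next to BEAF-32 in signal, and those of the wider list with a strong peak or none; any other gene, and every remark on the replicate split of BEAF-32, was chosen after its values were seen. The members, lists and motifs were chosen with earlier results of these data known. Alternatives were other lists, thresholds, distances and windows.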

Additional observations from a re-analysis of the deposited data

Results flagged for a closer look

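Just beyond the 3' end of mod(mdg4), the ranked lists held a region that is in none of the 4 lists used above. It lies at chr3R:21349459-21349818, with its summit 1207 bp outside the gene, intergenic, 38 bp from the TSS of aus. Its pooled signal was 136.6, with a q value of 0.00127 and a global IDR of 0.00233 in one pooled ranked list and 4.98e-05 in the other, both below 0.01. The overlapping regions of the replicates had 92.9 in replicate 1 and 33.7 in replicate 2. It was picked out because it carries signal in data outside the main measurement, and why it is missing from the lists was not tested.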

How the results depend on the processing

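Of 38 recomputed values, 24 kept within the limits set (1.5 times for a count, 1 SD between replicates for a percentage). All values for genes with a summit within 5 kb (7 to 8 genes) and at their own TSS (7 to 8) were among these. The number of genes with an own-TSS peak in the strongest 10%, 2 in the pooled list, was 1 in the conservative list, 1 with q values of 0.05 or less, 1 with signals at or above the median, 1 with the strongest 5% and 7 with the strongest 25%; leaving out a replicate gave 0 to 4. The first 3 of these change the list that ranks are taken in. The 7 include Ibf1 only through the peak it shares with Ibf2, since the peak nearest to its own TSS was at 38.9%. No share of all genes is given for the q value, median signal, 5% and 25% settings. The place of BEAF-32, 4.04% from the top, ranged from 1.83% without replicate 2 to 42.7% without replicate 1. Its limit was set by this same split between the replicates and was therefore wide. Only the value without replicate 1 fell outside it, so the values kept within it do not show a stable place. The share of peaks with CGATAG, 43.8%, was 61.9% in the conservative list and 56.5% with q values of 0.05 or less. It was 61.9% at or above the median signal and 53.1% in windows of 100 bp to each side. Without 1 replicate it was 51.9% to 55.6%. The cause was not tested. The share over all summit windows is not given at these settings, so these values cannot be set against the 25.7% of the main setting. Giving each peak to its nearest TSS was added after the data were seen. No paired analysis was possible because there is 1 group. The unknown depth limits how far an absent peak, as at su(Hw), can be read.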

Other observations

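The su(Hw) TSS lies in a long stretch without any region in the ranked list of replicate 2, although that list holds 99809 regions on the main arms at a median spacing of 759 bp. The stretch was 41.8 kb, and 127 of the 99803 gaps in that list were as long or longer. In the ranked list of replicate 1 the gap around the same TSS was 478 bp, against a median of 859 bp. Over all protein-coding genes, 8.96% had no region within 5 kb in the ranked list of replicate 2 and 3.51% in that of replicate 1. These values were looked up after su(Hw) was seen to have no peak, and their cause was not tested.

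At these genes 20 of the 21 peaks of the conservative list were also in the pooled list. The other was a peak inside Ibf1 with a signal of 15.3, the summit 227 bp from its TSS.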
